A study of Mus musculus with 8 samples.

Results

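The genes described here are Adm, Adm2 and Adcyap1r1, which encode the adrenomedullin peptides and the receptor of the peptide PACAP. They were taken by name from the deposited tables of 5-hydroxymethylcytosine (5hmC) signal and are 3 of the 273 genes in those tables. Of all genes listed, 220 carry the authors' mark UP and 53 the mark DOWN, by a criterion not given in the sources used here. Adm and Adcyap1r1 were UP genes and Adm2 was a DOWN gene.

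The study profiled genomic 5hmC by immunoprecipitation and sequencing in primary myoblasts from mouse hindlimb muscle. All cells were grown with 10% horse serum and 2.5 ng/mL of the growth factor bFGF. Psat1KO cells had the genotype Pax7 CRE+/-;Psat1fl/fl and CTRL cells had Pax7+/+; Psat1fl/fl. Both genotypes thus carried floxed alleles of Psat1, whose product acts in the synthesis of serine. A Cre allele at Pax7, a gene of muscle stem cells, was present only in Psat1KO cells, so that the Cre allele and the loss of Psat1 cannot be told apart. The age of the animals, the number pooled and the time of deletion are not given in the labels, and Psat1 itself was not analysed here. Of 6 myoblast marker genes looked up, Pax7 and Myf5 were in the tables, both as DOWN genes. A DNA modification does not measure their expression, so the labelled cell type was not checked.

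The 4 immunoprecipitated libraries, 2 per genotype, came as 2 tables with 1 Psat1KO and 1 CTRL library each, here called set 1 and set 2. Each gene had a coverage signal at a fixed number of consecutive bins, whose mean is here called the level of the gene, in the authors' unit. Low values were multiples of a step whose size, read as 1 read per 1000000, implied 30559008 reads in the Psat1KO and 22632699 in the CTRL library of set 1. In set 2 it implied 69794435 reads in the Psat1KO and 69765569 in the CTRL library. Where reads are given below, they are the signal divided by that step. A bin of the UP genes held on average 0.720 and 0.539 reads in the Psat1KO and CTRL libraries of set 1, and 1.53 and 1.61 reads in those of set 2. Single bins therefore rest on few reads, above all in set 1. The labels do not state that the libraries came from separate animals, so p-values measure only the spread between libraries, which may be technical.

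5hmC is made from methylated cytosine by TET enzymes, mostly at CG sites, and in many tissues it is found in the bodies and at the enhancers of active genes. Adrenomedullin, the product of Adm, is a secreted peptide that widens blood vessels, and the product of Adm2, also called intermedin, belongs to the same calcitonin gene-related peptide family. Both act on the calcitonin receptor-like receptor together with a RAMP protein. Adcyap1r1 encodes PAC1, the receptor with high affinity for PACAP, a neuropeptide of the secretin and glucagon family. Both receptor systems raise cyclic AMP through Gs. PAC1 is best known from the nervous system.

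The members differed in size and setting (RefSeq annotation, GRCm38). Adm lay on chromosome 7 from 110627657 to 110629820 on the plus strand. With 2164 bp it was among the shortest UP genes, of which 7 were shorter. It lay wholly inside the long noncoding RNA gene Gm28863 (110625467 to 110630906), so that coverage cannot be assigned to one of them. Adm2 lay on chromosome 15 from 89322720 to 89324731 on the plus strand and spanned 2012 bp, with 3 shorter DOWN genes. Its nearest annotated neighbours were Sbf1 at 7408 bp and Miox at 9741 bp. Adcyap1r1 lay on chromosome 6 from 55451501 to 55501455 on the plus strand and spanned 49955 bp. The nearest annotated gene, Gm34441, lay 35587 bp away.

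The promoters are shown because 5hmC lies mainly at CG sites, with each CG in capitals. They come from RefSeq (GRCm38.p6), run 5′ to 3′ on the plus strand and hold 250 bases before and 50 after a start site of the promoter table. For Adm and Adm2 that site is the first base of the gene bounds given above. For Adcyap1r1 it lies inside those bounds, downstream of their first base, and the whole window does too. The window of the bins around each gene is not given in the sources used here, so no bin was placed on these sequences.
Adm, chr7:110627407-110627706: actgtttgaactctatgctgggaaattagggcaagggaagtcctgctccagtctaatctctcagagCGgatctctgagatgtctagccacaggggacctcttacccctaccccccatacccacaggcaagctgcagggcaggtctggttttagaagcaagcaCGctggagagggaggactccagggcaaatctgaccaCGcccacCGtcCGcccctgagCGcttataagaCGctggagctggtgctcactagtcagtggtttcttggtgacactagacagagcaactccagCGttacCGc
Adm2, chr15:89322470-89322769: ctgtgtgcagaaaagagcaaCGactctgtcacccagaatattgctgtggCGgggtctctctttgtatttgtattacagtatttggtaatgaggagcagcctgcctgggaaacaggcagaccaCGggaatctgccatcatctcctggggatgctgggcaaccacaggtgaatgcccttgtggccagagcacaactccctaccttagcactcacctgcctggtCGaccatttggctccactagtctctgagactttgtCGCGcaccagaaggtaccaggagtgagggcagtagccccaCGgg
Adcyap1r1, chr6:55451728-55452027: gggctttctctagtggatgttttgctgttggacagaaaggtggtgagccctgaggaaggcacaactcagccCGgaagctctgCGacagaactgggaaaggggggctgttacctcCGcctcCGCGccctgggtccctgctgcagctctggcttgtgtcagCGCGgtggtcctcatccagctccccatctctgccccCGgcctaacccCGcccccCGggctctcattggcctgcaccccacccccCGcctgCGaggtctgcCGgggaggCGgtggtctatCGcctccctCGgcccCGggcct

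The Adcyap1r1 window was the richest in CG of those printed, with 17 CG sites and 67.3% G and C. As many CG sites were present in 31.4% of all promoters of this length. The Adm promoter held 9 CG sites and 56% G and C, and 45.8% of promoters held as many. The Adm2 promoter held 7 CG sites and 54.7% G and C, and 52.1% of promoters held as many, its count being the median of all promoters.

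The comparison of the genotypes asked whether 5hmC at these genes differed in Psat1KO myoblasts. The Psat1KO level was above the CTRL level in both sets at Adm and Adm2, and the sets had opposite directions at Adcyap1r1. These directions were not firm: the Adm ratio of set 2 was 0.959 with each library scaled to its median, and without the highest bin of each library the set 1 ratio was 1.02 at Adcyap1r1 and 0.936 at Adm2. None of the 3 differences passed the test. Across all genes limma on log2(level + 0.005) called 0 of 273 at a Benjamini-Hochberg adjusted p under 0.05 (0%), while 8 genes had an unadjusted p under 0.05.

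Adm had levels of 0.0316 and 0.0217 in the Psat1KO libraries of sets 1 and 2, against 0.0253 and 0.0214 in the CTRL libraries. The Psat1KO library of set 1 was the highest of the 4, the other Psat1KO library lay between the CTRL libraries, and the genotypes overlapped. Of the UP genes 16.8% had both Psat1KO levels above both CTRL levels and 12.7% had both below. Mean levels were 0.0267 ± 0.00697 in Psat1KO and 0.0233 ± 0.00273 in CTRL (SD, n = 2), a difference smaller than the spread between the Psat1KO libraries. Within set 1 the Psat1KO level was 1.25 times the CTRL level, the 47th highest ratio of 220 UP genes, whose median was 0.956. Within set 2 it was 1.01 times, rank 122, below the median of 1.04. Of the UP genes 30% had Psat1KO above CTRL in both sets, as Adm did. The limma difference was 0.14 ± 0.20 (log2, SE), with a 95% interval from 0.743-fold to 1.65-fold and an adjusted p of 1. Without the Psat1KO library of set 1 the difference turned to -0.08. An exact permutation test of the libraries gave p = 0.667, where 2 against 2 cannot go below 0.333.

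**Figure D1:**
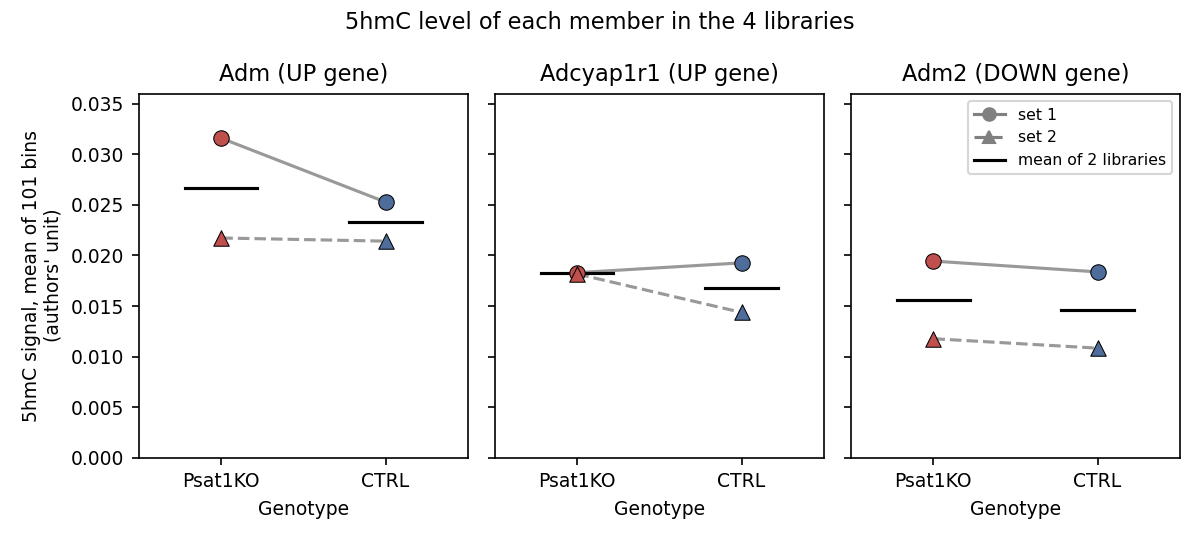
5hmC level (mean signal over the bins, authors' unit) of each gene in the 4 libraries, Psat1KO left and CTRL right, with circles for set 1, triangles for set 2 and a black bar for the mean of 2 libraries. Adm in the Psat1KO library of set 1 reached 0.0316, the highest level shown, and the genotypes overlapped at Adm and Adcyap1r1. Adm2 is to be read within a set.

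Adm2 had levels of 0.0194 in the Psat1KO and 0.0184 in the CTRL library of set 1. In set 2 it had 0.0118 in the Psat1KO and 0.0108 in the CTRL library. Psat1KO was slightly above CTRL within each set. The DOWN rows of set 1 differed in kind from the other rows, as 0% of their bins held interpolated values below 0.001, against 18.8% in Psat1KO and 19.3% in CTRL of set 2. Levels of Adm2 were therefore compared within a set, and a test that pools the sets is given only with that limit. The Psat1KO to CTRL ratio was 1.06 in set 1, rank 19 of 50 DOWN genes with a median of 1.00, and 1.09 in set 2, rank 15 with a median of 1.02. Of the DOWN genes with a ratio 28% had Psat1KO above CTRL in both sets. With the set as a block, limma gave 0.07 ± 0.081 (log2, SE), a 95% interval from 0.868-fold to 1.28-fold and an adjusted p of 0.822. The fit without the block and the exact permutation test pool the sets, so their spread also holds the difference between the kinds of rows. That fit gave an adjusted p of 1 and an interval from 0.585-fold to 1.89-fold, and the exact permutation test gave p = 0.667. Within its set Adm2 lay in the lower part of the DOWN genes, ranking 35 and 50 of 53 from the top in the Psat1KO libraries of sets 1 and 2 and 36 and 49 in the CTRL libraries. Of the 53, 51 had any signal in the Psat1KO library of set 2 and 50 in each of the other libraries. In set 2 Adm2 was thus near the lowest of the genes with signal.

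Adcyap1r1 had levels of 0.0183 and 0.0182 in the Psat1KO libraries of sets 1 and 2, against 0.0193 and 0.0144 in the CTRL libraries. The CTRL libraries were the highest and the lowest of the 4, with both Psat1KO libraries between them. Means were 0.0182 ± 9.57e-05 in Psat1KO and 0.0168 ± 0.00346 in CTRL (SD, n = 2). The ratio was 0.950 in set 1, rank 113 of 220 UP genes, and 1.26 in set 2, rank 21. Opposite directions in the sets were seen at 47.3% of UP genes. limma gave 0.10 ± 0.15 (log2, SE), with a 95% interval from 0.797-fold to 1.44-fold and an adjusted p of 1, and the exact permutation test gave p = 1. Without the CTRL library of set 2 the difference turned to -0.06. Adcyap1r1 had less signal than most UP genes, ranking 154 and 155 of 220 in the Psat1KO libraries and 145 and 190 in the CTRL libraries of sets 1 and 2.

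Among the 2 UP members, which came through the same tables, the mean over bins of Adm was above that of Adcyap1r1 in each of the 4 libraries. The level is a mean over bins and thus per bin, not per gene. Adm ranked 41 and 113 of 220 in the Psat1KO libraries of sets 1 and 2, and 84 and 97 in the CTRL libraries.

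The signal of Adm was unevenly placed along its bins. Most of it fell into bins 1 to 20 and bins 61 to 80, with little between them in any library. Bins 21 to 60 held 4.10% and 7.75% of the signal in the Psat1KO libraries of sets 1 and 2, and 3.59% and 6.11% in the CTRL libraries. The median UP gene held 39% and 38.7% there in the Psat1KO libraries and 38.8% and 39.2% in the CTRL libraries. Adm had the 6th and 4th lowest share of 220 genes in Psat1KO and the 6th lowest in both CTRL libraries. These bins thus held little signal in both genotypes. The window of bins 21 to 60 was not planned and joins bins 21 to 40 and bins 41 to 60, where Adm had little signal. Low ranks of Adm in this window describe that gap and are no test. Among the 23 UP genes shorter than 5000 bp, Adm ranked second from the lowest in each of the 4 libraries. Of these 40 bins, 3 and 9 reached the signal of a read in the Psat1KO libraries of sets 1 and 2, and 2 and 5 in the CTRL libraries.

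**Figure D2:**
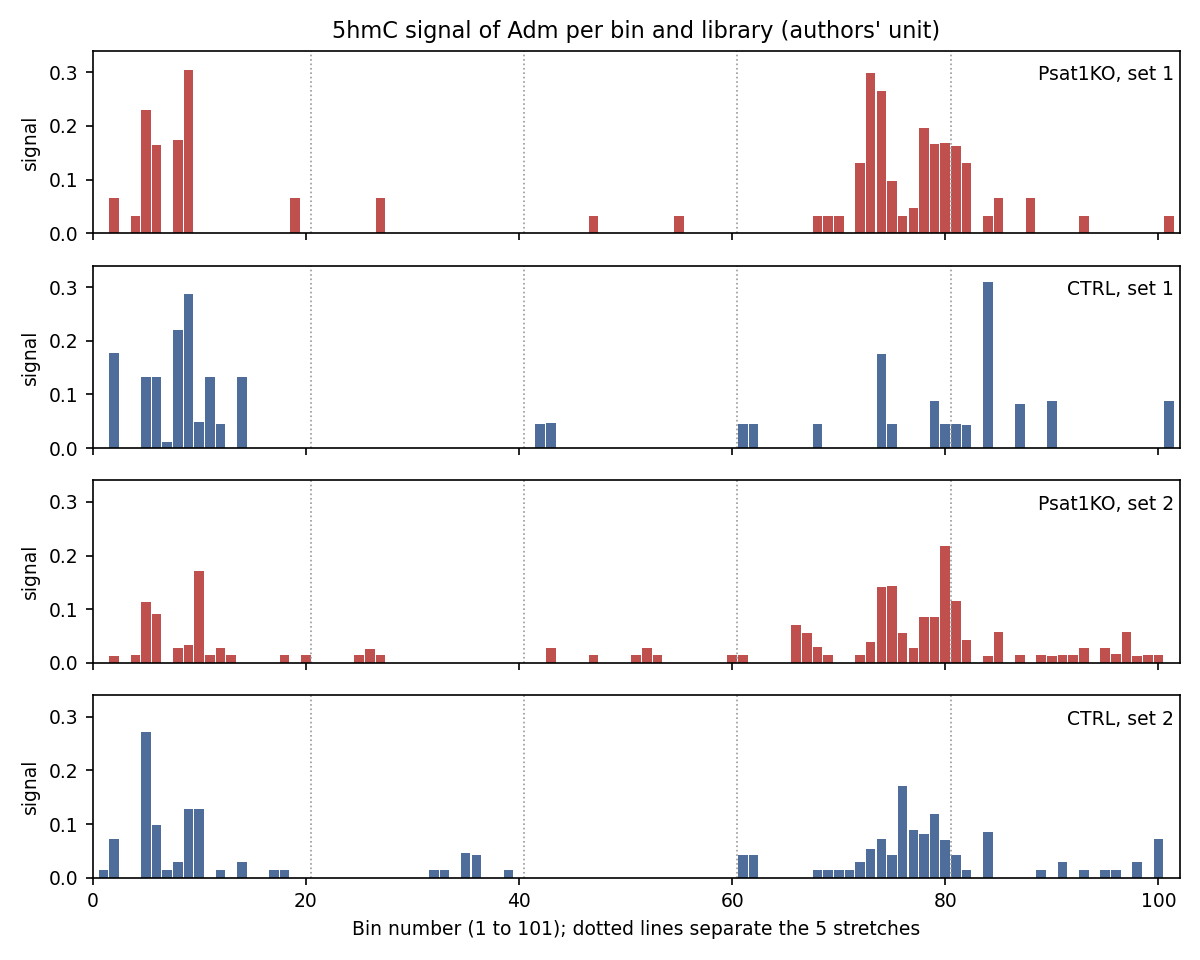
5hmC signal of Adm (authors' unit) in each bin, 1 panel per library, with dotted lines between the 5 stretches. Bins 21 to 60 held between 3.59% and 7.75% of the signal in each library, and bins 5, 6 and 74 reached 3 reads after rounding in all 4.

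Bins with 3 or more reads after rounding were compared between libraries to see which positions recurred. Reads are not scaled for depth. A read stood for a signal of 0.0327 in Psat1KO and 0.0442 in CTRL of set 1, and for 0.0143 in both libraries of set 2. The numbers of such bins, and the shares held in common, are therefore not comparable between sets. They were not set beside those of other UP genes. Bins 5, 6 and 74 of Adm reached this in all 4 libraries. In set 1 both genotypes shared 5 such bins, 38.5% of 13 in Psat1KO and 55.6% of 9 in CTRL. In set 2 they shared 11, 68.8% of 16 in Psat1KO and 55% of 20 in CTRL, among them bins 73 to 76 and 78 to 81. The highest bin was bin 9 in Psat1KO of set 1 with 9.32 reads and bin 80 in Psat1KO of set 2 with 15.2 reads. It was bin 84 in CTRL of set 1 with 7 reads and bin 5 in CTRL of set 2 with 18.95 reads. These highest bins held 9.56% and 9.90% of the signal in the Psat1KO libraries and 12.1% and 12.6% in the CTRL libraries, so no single bin made up the level of Adm.

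Across all bins the Adm profiles of Psat1KO and CTRL had a Pearson r of 0.523 in set 1 and 0.585 in set 2, against medians over UP genes of 0.282 and 0.605. Between the sets r was 0.589 for the Psat1KO libraries and 0.493 for the CTRL libraries, against UP medians of 0.483 and 0.357. It was 0.604 for Psat1KO of set 1 with CTRL of set 2, and 0.290 for CTRL of set 1 with Psat1KO of set 2. The UP medians of these pairs were 0.487 and 0.351. The highest and the lowest r between the sets were thus those of unlike genotypes. These values describe bins of 1 gene, which are not independent. In UP genes shorter than 5000 bp, neighbouring bins from 21 to 81 had a median correlation of 0.350 and 0.465 in the Psat1KO libraries of sets 1 and 2, and 0.394 and 0.548 in the CTRL libraries. In UP genes longer than 50000 bp it lay between -0.02 and 0.03 in the 4 libraries. In bins 1 to 20 of the short genes the median was 0.109 and 0.034 in the Psat1KO libraries of sets 1 and 2, and -0.06 and 0.161 in the CTRL libraries. Adjacent high bins of Adm between bins 21 and 81 may therefore hold the same reads.

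The genotypes were then compared over 5 stretches of bins, in a fit added after the data were seen. In bins 1 to 20 Adm had a signal of 0.0517 and 0.0278 in the Psat1KO libraries of sets 1 and 2, against 0.0660 and 0.0414 in the CTRL libraries. Psat1KO was lower within each set, at 0.783 and 0.671 times CTRL, but the genotypes overlapped across sets. In bins 61 to 80 it had 0.0750 and 0.0498 in the Psat1KO libraries, against 0.0243 and 0.0437 in the CTRL libraries. Here both Psat1KO libraries were above both CTRL libraries, as at 19.5% of UP genes. The ratio was 3.09 in set 1, the shallower set, and 1.14 in set 2. In set 1 the CTRL signal of these bins came from 7 bins with a read, at 0.55 reads per bin on average. The Psat1KO signal of set 1 came from 12 bins, at 2.29 reads per bin. That stretch held 47.1% and 45.4% of the Adm signal in the Psat1KO libraries, and 19% and 40.4% in the CTRL libraries.

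Neither stretch passed the test. limma over 1365 stretches called 0 (0%), with 40 at an unadjusted p under 0.05. The log2 difference was -0.41 ± 0.42 (SE) in bins 1 to 20 and 0.81 ± 0.39 in bins 61 to 80, each with an adjusted p of 0.984. With the set as a block the adjusted p was 0.793 for both. Leaving out 1 library at a time gave -0.81 to -0.02 in bins 1 to 20, nearest to 0 without the Psat1KO library of set 2, and 0.44 to 1.18 in bins 61 to 80. Of the UP genes 19.5% had Psat1KO below CTRL in bins 1 to 20 in both sets, 26.8% had it above CTRL in bins 61 to 80 in both sets, and 14 of 220 (6.36%) had both, Adm among them. From bin 81 to the last bin Adm had a ratio of 0.80 in set 1 and 1.43 in set 2. In bins 21 to 40 of set 1 and 41 to 60 of set 2 no bin of the CTRL library reached the signal of a read. Any trace left there by interpolation was set to 0, and no ratio was formed.

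**Figure D3:**
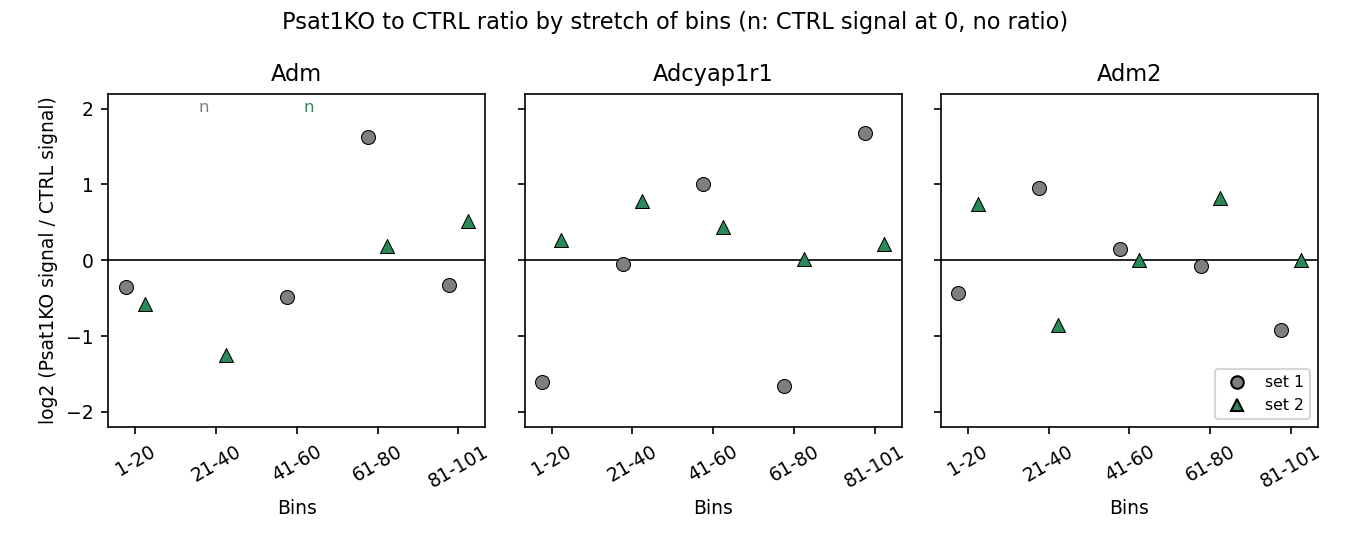
log2 ratio of Psat1KO to CTRL signal in 5 stretches of bins for each gene, circles for set 1 and triangles for set 2, with n where the CTRL signal was set to 0. At Adm both sets lay below 0 in bins 1 to 20 and above 0 in bins 61 to 80. Adm2 is to be read within a set.

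Adcyap1r1 had its signal spread over all stretches of bins, whose place on the gene is not known. Bins 21 to 60 held 59.2% and 38.6% in the Psat1KO libraries of sets 1 and 2, and 41.1% and 31.6% in the CTRL libraries. The highest share was that of Psat1KO in set 1, and the genotypes overlapped. Bins 5, 6, 9, 39, 60, 61, 90 and 91 each reached 3 reads after rounding in more than 1 library. Bin 5 had 3.07 and 9.04 reads in the Psat1KO libraries, against 2.16 and 13.99 in the CTRL libraries. Bin 6 had 0 and 9.97 reads in the Psat1KO libraries, against 6.78 and 3 in the CTRL libraries, so the order of the genotypes at this bin turned between the sets. Bin 39 had 5.02 and 2 reads in the Psat1KO libraries, against 5 and 9 in the CTRL libraries. Its signal was 0.164 and 0.0287 in the Psat1KO libraries, against 0.221 and 0.129 in the CTRL libraries. Reads are not scaled for depth, and by signal Psat1KO was lower in both sets. Bin 91 had 3 and 3.97 reads in the Psat1KO libraries, against 0 and 6.53 in the CTRL libraries. No order of the genotypes held in both sets at bins 5, 6, 61 and 91. Bin 60 had 4 and 5.03 reads in the Psat1KO libraries, against 1 and 0 in the CTRL libraries. Bin 90 had 4 and 4, against 0 and 2. Bin 9 had 0 and 0.91, against 5 and 3. Psat1KO was thus higher in both sets at bins 60 and 90 and lower in both at bin 9. These are single bins of few reads and were not tested. The bins that reached 3 reads after rounding in all 4 libraries numbered 0. In set 1 only 9 bins in Psat1KO and 5 in CTRL reached this, at 0.559 and 0.436 reads per bin on average. That count of 0 therefore says little about the gene, and it was not set beside other UP genes. The profiles of the genotypes had r of 0.129 in set 1 and 0.390 in set 2, both below the UP medians of 0.282 and 0.605.

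By stretch, Adcyap1r1 had ratios of 0.328 in set 1 and 1.20 in set 2 in bins 1 to 20, and of 0.318 and 1.01 in bins 61 to 80. Bins 41 to 60 were higher in Psat1KO in both sets, with 0.0311 and 0.0146 in the Psat1KO libraries of sets 1 and 2, against 0.0155 and 0.0108 in the CTRL libraries, or 2.0 and 1.35 times. Across sets the genotypes overlapped there, and 27.3% of UP genes were higher in Psat1KO in both sets in these bins. From bin 81 to the last, Adcyap1r1 had 0.0202 and 0.0157 in the Psat1KO libraries, against 0.00629 and 0.0135 in the CTRL libraries, or 3.21 and 1.16 times, with both Psat1KO libraries above both CTRL libraries. In these bins 32.3% of UP genes were higher in Psat1KO in both sets, and 17.3% had both Psat1KO libraries above both CTRL libraries. The log2 differences were 0.56 ± 0.40 and 0.66 ± 0.34 (SE), each with a limma adjusted p of 0.984. Leaving out 1 library at a time gave 0.12, without the Psat1KO library of set 1, to 1.01, without that of set 2, in bins 41 to 60. From bin 81 on it gave 0.30, without the CTRL library of set 1, to 1.02, without that of set 2. The CTRL signal from bin 81 on in set 1 came from 3 bins with a read, and in bins 61 to 80 the Psat1KO signal of set 1 also came from 3.

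**Figure D4:**
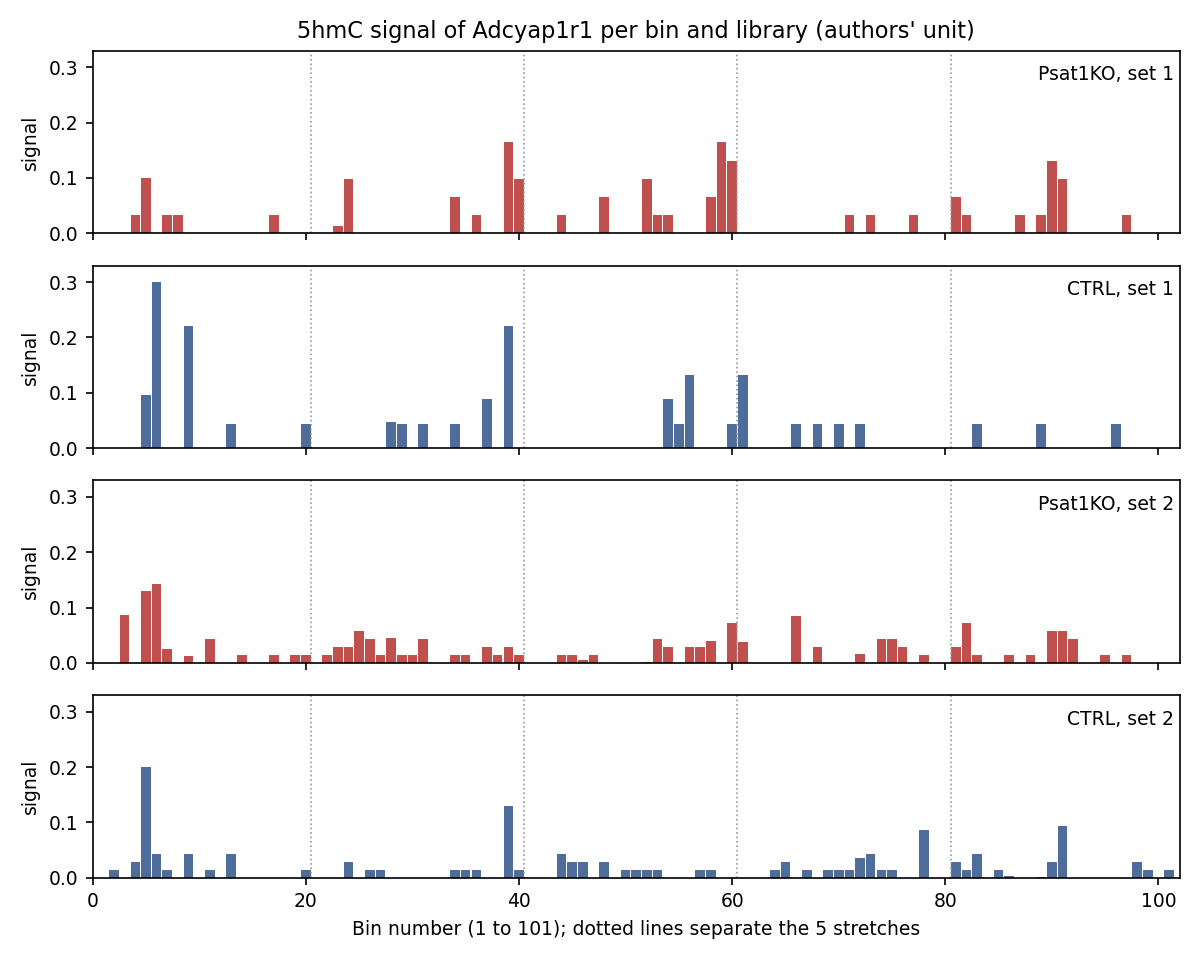
5hmC signal of Adcyap1r1 (authors' unit) in each bin, 1 panel per library, with dotted lines between the 5 stretches. Signal was spread over all stretches. Single bins rest on few reads, above all in set 1, and 0 bins reached 3 reads after rounding in all 4 libraries.

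Adm2 was described within each set. In the Psat1KO library of set 1, bin 80 alone had 12 reads and 20% of the signal of the gene, against 2 reads in the CTRL library. Without the highest bin of each library the ratio of set 1 turned to 0.936. Bin 79 had 4 reads in both libraries of set 1, a signal of 0.131 in Psat1KO and 0.177 in CTRL. In set 2 the highest bin was bin 85 in both genotypes, with 9.24 reads and 11.1% of the signal in Psat1KO and 11.02 reads and 14.4% in CTRL. Bin 84 next to it had 8.0 reads in Psat1KO and 3.01 in CTRL. The profiles of the genotypes had r of 0.231 in set 1 and 0.524 in set 2, against medians over DOWN genes of 0.219 and 0.596.

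By stretch, Psat1KO to CTRL ratios of Adm2 in sets 1 and 2 were 0.741 and 1.67 in bins 1 to 20, and 1.94 and 0.552 in bins 21 to 40. They were 1.11 and 1.00 in bins 41 to 60, 0.946 and 1.77 in bins 61 to 80, and 0.529 and 1.01 from bin 81 on. Ratios of 1.00 in bins 41 to 60 and 1.01 from bin 81 on, both in set 2, show no direction. In the Psat1KO libraries bins 61 to 80 held 38.3% of the Adm2 signal in set 1 and 6.37% in set 2, and in the CTRL libraries 42.9% and 3.90%. Neither the ratios by stretch nor the shares are compared between sets, for the reason given for the rows of DOWN genes.

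**Figure D5:**
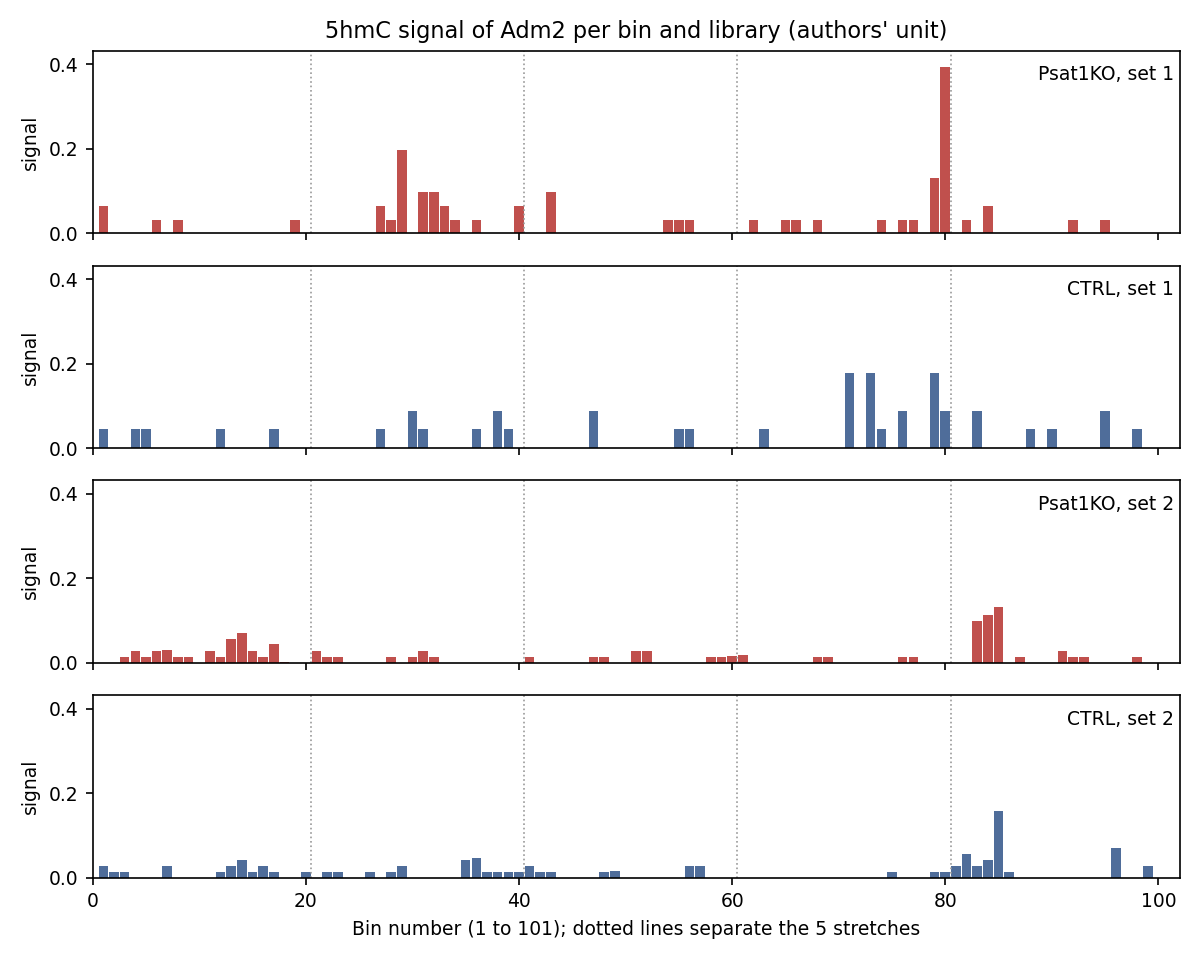
5hmC signal of Adm2 (authors' unit) in each bin, 1 panel per library, with dotted lines between the 5 stretches. The highest bin was bin 80 in Psat1KO of set 1, with 20% of the signal, and bin 85 in both libraries of set 2.

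Of 58 genes listed for adrenomedullin, PACAP and cyclic AMP signalling (peptides, receptors, RAMP proteins, adenylyl cyclases, kinases, phosphodiesterases and peptide-processing enzymes), 4 were in the tables, 2 UP and 2 DOWN. Beside the 3 members this was Mme, a DOWN gene encoding neprilysin, a peptidase at the cell surface that cleaves many small peptides. Mme had levels of 0.0152 and 0.0156 in the Psat1KO libraries of sets 1 and 2, against 0.0206 and 0.0189 in the CTRL libraries. Psat1KO was below CTRL within each set, as at 26% of DOWN genes with a ratio. The ratios were 0.741 and 0.825, rank 48 and 49 of 50. With the set as a block the limma difference was -0.28 ± 0.089 (log2, SE) and its adjusted p was 0.720. The fit without the block, which pools the sets, gave an adjusted p of 0.953. The receptor of the adrenomedullins and the PACAP peptide gene were not among the genes analysed here. In either direction 0 of the 4 listed genes passed the test, as did 0 of all 273 genes. The count is therefore no result about the listed genes.

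For each member the 3 genes of its mark with the most similar levels were found by distance in log2(level + 0.005) over the 4 libraries. For Adm these included the protease gene Ctsk at 0.16 and the platelet chemokine gene Ppbp at 0.18. For Adcyap1r1 they included the surface marker gene Cd34 at 0.15 and the growth factor receptor gene Pdgfra at 0.20. For Adm2 the nearest were the cadherin gene Fat4 at 0.57, the lipid kinase gene Pip5k1b at 0.57 and Dynap at 0.62. The distances of Adm2 were thus the larger ones, in a group of 53 genes against 220.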

How the data were processed

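Per the labels' protocols, sonicated genomic DNA of about 300 bp and 5 ug was immunoprecipitated for 5hmC, with 10% kept as input. The input libraries were not analysed here. The submitters' processing notes name Trim Galore 0.6.7, Bowtie 1.3.1, MACS 1.4.2 and the mm10 build, without their roles. The authors deposited a coverage signal per gene over consecutive bins. How the bins were made, windowed and scaled, and how genes came to be marked UP or DOWN, is not given in the sources used here. Small values lay within 1% of a whole step in 84.4% and 73.6% of cases in the Psat1KO libraries of sets 1 and 2, and in 86.6% and 74.3% in the CTRL libraries. Input was taken as not subtracted. No value was negative, but that does not show whether input was subtracted.

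Each block was assigned by its genotype and the number of its table, taken as the replicate number. The numbers are not stated to pair samples. Genes were matched to RefSeq for GRCm38, 268 by transcript and 5 by symbol. limma 3.58.1 (R 4.3.3) was fitted to log2(level + 0.005) over all 273 genes, 2 against 2 libraries with no covariate. A fold on this scale is understated at low levels. Exact permutation tests were two-sided. Stretch values and reads were computed with Python 3.11.15.

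Genes named were the 3 members, the 3 most similar genes of the same mark for each, listed pathway genes present in the tables, and Pax7. Some of the similar genes are not reported here. Members, lists and stretches were chosen with earlier results of these data known. Alternatives changed the pseudocount, a filter on low levels, the scaling, the highest bin, a limit of 0.5 per bin, the block, the genes fitted and the libraries used.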

Additional observations from a re-analysis of the deposited data

How the results depend on the processing

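The count of genes called stayed at 0 in every setting run, with a pseudocount of 1 or 0.001, a level of at least 0.005, each library scaled to its median, without the highest bin, with bins limited to 0.5, with the replicate block, with UP or DOWN genes alone and without any 1 library. At an unadjusted p under 0.05 there were 8 genes, 13 with the block and 7 with a pseudocount of 1. The fit over stretches was added after seeing the data and also called 0 in every setting. With 1 library left out the difference (log2) ranged from -0.08 to 0.37 for Adm, -0.06 to 0.26 for Adcyap1r1 and -0.21 to 0.35 for Adm2. It turned for Adm without Psat1KO replicate 1 (-0.082), for Adcyap1r1 without CTRL replicate 2 (-0.063), and for Adm2 without Psat1KO replicate 1 (-0.20) or CTRL replicate 2 (-0.21). These fits set libraries of different sets against each other. With the replicate block the differences were 0.14, 0.10 and 0.07 for Adm, Adcyap1r1 and Adm2, with limma adjusted p of 0.755, 0.864 and 0.822, and the block changed no call. With 2 pairs the numbers were not shown to pair samples. The deviations of the libraries of set 1 from their genotype means had r of 0.221 over UP and 0.731 over DOWN genes. With 2 libraries per genotype this r also holds any difference between the sets, and for DOWN genes that between the kinds of rows. It therefore cannot show a pairing of samples.

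Scaling each library to its median turned the Adm ratio of set 2 to 0.959 and moved the Adm2 ratios to 1.01 in set 1 and 1.03 in set 2. Without the highest bin the set 1 ratio turned to 1.02 for Adcyap1r1 and to 0.936 for Adm2, and the set 2 ratio of Adm2 moved to 1.13. A pseudocount of 0.005 moved the set 2 ratio of Adm2 to 1.06. Apart from the removal of 1 bin or library in these settings, the cause was not tested. Depth limits single bins most, at 0.539 to 1.61 reads per bin of an UP gene.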
